A study of Mus musculus with 6 samples.

Results

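The genes described here are 10 contractile and matrix genes that are known targets of the transcription factor SRF and the coactivator YAP: Acta2, Actg2, Tagln, Cnn1, Myl9, Tpm1, Cyr61, Ctgf, Ankrd1 and Thbs1. They were chosen by name from the RefSeq transcripts of the deposited files, keeping for each gene the transcript with the most counts over the 6 libraries. Earlier results of these data were known when the names were chosen, so the shares of all genes given below are not an independent contrast. All 10 were found among 20706 genes, and all 10 passed the minimum of a mean RPKM of 1 (12187 genes) and the minimum of a mean count of 10 (14159 genes).

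The libraries are RNA-seq of V6.5 cells, a C57BL/6-129 murine embryonic stem cell (ESC) line that was grown on irradiated fibroblast feeders and then for a single passage on gelatin before harvest. Every culture was infected with a lentiviral shRNA construct and selected with puromycin at 0.5 and then 1 µg/ml for 48 hr each, as the sample labels give it. The control shRNA was against GFP (1 library). The others were against SMC1, a subunit of cohesin (1 library), CAPH2, a subunit of condensin II (2 libraries, CAPH2 #1 and CAPH2 #2), and SMC2, the subunit shared by both condensins (2 libraries, SMC2 #1 and SMC2 #2). The libraries of a pair carry different hairpins, and nothing states whether any came from separately grown cultures, so the p-values below measure only the spread between these libraries. Total counts were 25467427 to 31337313 per library. The target transcripts were lowered against GFP, to 39.9% for Smc1a, to 21.0 and 34.8% for Ncaph2, and to 70.7 and 71.9% for Smc2.

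SRF is a transcription factor that binds the CArG box, and its cofactors of the MRTF family enter the nucleus when monomeric actin is used up by filament assembly. With MRTFs, SRF drives genes of the contractile apparatus, and with a different set of cofactors it drives immediate early genes. YAP and TAZ (gene Wwtr1) are coactivators that are held back by the Hippo kinases LATS1 and LATS2 and act on DNA through TEAD factors. Both systems respond to cell tension and spreading and share many target genes. In smooth muscle and myofibroblasts the SRF targets are the classical markers of contraction, whereas in ESCs they are not markers of cell identity.

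The promoters of the members are shown first because SRF and the TEAD factors, through which YAP acts, each bind a known sequence. RefSeq promoter windows of 300 bases (250 before the start and 50 after it, build GRCm38.p6) were at hand for 6 of the 10 genes, Acta2, Cnn1, Myl9, Tpm1, Cyr61 and Ankrd1. Windows for Actg2, Tagln, Ctgf and Thbs1 were not used here. The 4 windows below each hold a match. Capitals mark the CArG box (CC, 6 bases that are only A or T, GG), the same form with at most 1 G or C among those 6 bases, and the TEAD motif CATTCC or its reverse complement GGAATG. Both strands were searched, and each window is written 5′ to 3′ on the strand of its gene.
Acta2: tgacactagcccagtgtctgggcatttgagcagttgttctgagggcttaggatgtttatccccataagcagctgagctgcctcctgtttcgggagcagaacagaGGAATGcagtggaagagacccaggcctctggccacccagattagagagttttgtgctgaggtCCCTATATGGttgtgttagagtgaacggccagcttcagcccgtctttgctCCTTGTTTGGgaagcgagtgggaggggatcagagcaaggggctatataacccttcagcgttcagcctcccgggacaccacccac
Myl9: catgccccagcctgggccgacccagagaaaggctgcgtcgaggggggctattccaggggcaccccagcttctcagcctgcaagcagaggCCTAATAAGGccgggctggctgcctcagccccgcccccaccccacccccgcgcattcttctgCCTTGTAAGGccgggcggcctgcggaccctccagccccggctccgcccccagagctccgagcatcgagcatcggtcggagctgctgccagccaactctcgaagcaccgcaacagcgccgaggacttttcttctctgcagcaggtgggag
Cyr61: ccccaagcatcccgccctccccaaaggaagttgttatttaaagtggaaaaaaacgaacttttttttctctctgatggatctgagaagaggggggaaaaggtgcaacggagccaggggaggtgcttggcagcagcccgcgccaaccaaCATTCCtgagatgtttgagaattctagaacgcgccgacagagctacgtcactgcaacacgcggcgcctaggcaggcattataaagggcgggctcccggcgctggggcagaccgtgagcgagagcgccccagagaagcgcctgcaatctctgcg
Ankrd1: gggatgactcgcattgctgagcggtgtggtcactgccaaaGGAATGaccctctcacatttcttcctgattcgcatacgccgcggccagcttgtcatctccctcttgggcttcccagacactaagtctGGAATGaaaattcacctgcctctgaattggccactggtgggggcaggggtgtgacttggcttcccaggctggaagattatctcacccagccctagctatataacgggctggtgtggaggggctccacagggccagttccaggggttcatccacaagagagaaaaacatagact
These windows are chr19:34255324-34255623 (minus strand), chr2:156775214-156775513 (plus strand), chr3:145649936-145650235 (minus strand) and chr19:36119795-36120094 (minus strand).

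The CArG box was found in 1 of the 6 windows, that of Myl9, where it begins 161 bases before the start, and in 1.63% of all 32851 promoter windows. The form with at most 1 G or C was found in 2 of the 6, Acta2 (beginning 84 and 34 bases before the start) and Myl9 (161 and 99 bases before it), and in 9.98% of all windows. Every CArG box is also a match to this wider form. The TEAD motif was found in 4 of the 6, Acta2 (146 bases before the start), Tpm1 (56), Cyr61 (103) and Ankrd1 (210 and 123), and in 14.7% of all windows. The muscle actin gene Acta2 was therefore the 1 member whose window held both kinds of match. A match describes the letters of a window and does not show that a factor binds there.

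In all 10 genes the SMC1 library had the highest level and the CAPH2 #1 library the next highest. The GFP library was the lowest in 8 of the 10, the exceptions being the actins Acta2 and Actg2. Levels are given as RPKM, read counts normalized for transcript length and sequencing depth, which allows genes to be compared per length. The summed RPKM of the 10 genes was 492.7 with GFP, 1628 with SMC1, 802.9 and 561.1 with the CAPH2 hairpins, and 612.7 and 543.5 with the SMC2 hairpins. In bulk RNA, more cells that express these genes and more RNA per cell cannot be told apart.

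**Figure D1:**
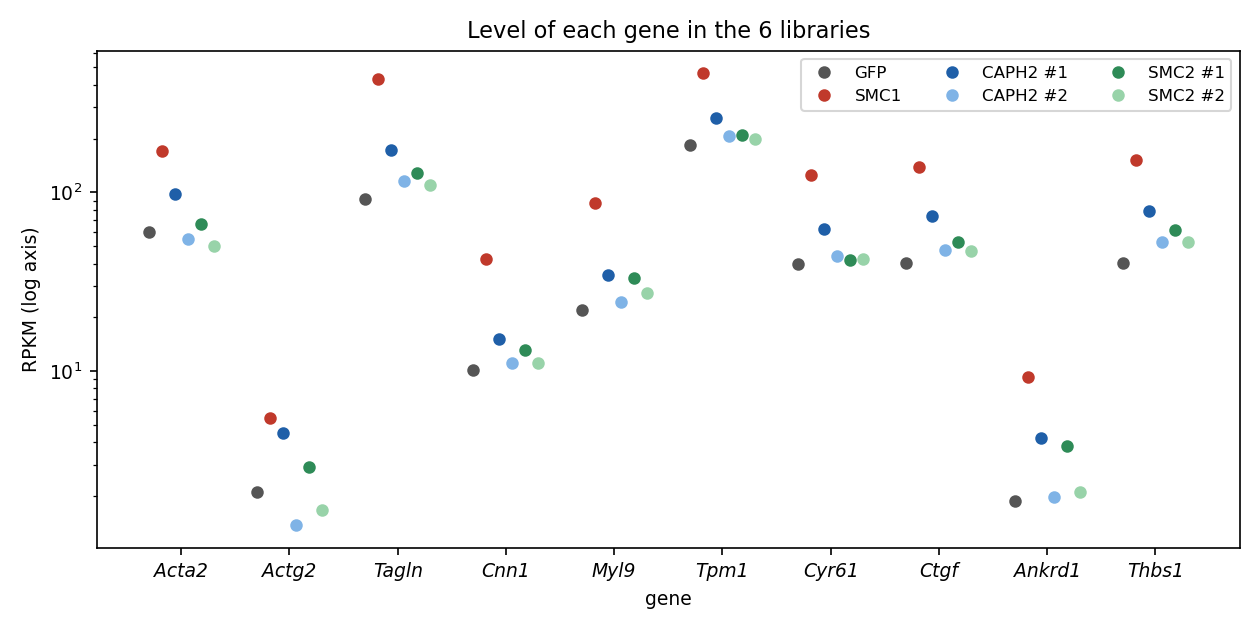
RPKM of each gene (log axis) in the 6 libraries, 1 point per library and no error bars because each point is a single library. The SMC1 point lies highest for all 10 genes, and levels run from 1.37 (Actg2, CAPH2 #2) to 463.5 (Tpm1, SMC1).

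Among the structural genes of the contractile apparatus, Acta2 (NM_007392, chromosome 19 from 34315581 to 34329826, minus strand, mm9) encodes smooth muscle alpha-actin. Its RPKM was 60.2 with GFP, 171.4 with SMC1, 97.7 and 55.1 with CAPH2, and 66.7 and 50.4 with SMC2. The second hairpin of each condensin target was therefore below GFP and the first above it. The smooth muscle gamma-actin gene Actg2 (NM_009610, chromosome 6) had an RPKM of 2.12 with GFP, 5.46 with SMC1, 4.50 and 1.37 with CAPH2, and 2.90 and 1.68 with SMC2. These rest on 34 to 138 counts, and the SMC1 and CAPH2 #1 libraries had 138 counts each. The actin paralogs are nearly identical in their coding sequence and reads with many alignments had been discarded, so the levels of both actins are uncertain.

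Tagln (NM_011526, chromosome 9) encodes transgelin, an actin-binding protein of smooth muscle. Its RPKM was 91.98 with GFP, 433.6 with SMC1, 171.6 and 115.7 with CAPH2, and 127.8 and 109.3 with SMC2. Cnn1 (NM_009922, chromosome 9), which encodes calponin, had 10.2 with GFP, 42.4 with SMC1, 15.04 and 11.0 with CAPH2, and 13.1 and 11.0 with SMC2. For both genes the SMC1 library stood more than 2-fold above each of the other 5. Myl9 (NM_172118, chromosome 2), the regulatory light chain of smooth muscle and nonmuscle myosin, had an RPKM of 21.97 with GFP, 87.6 with SMC1, 34.4 and 24.4 with CAPH2, and 33.3 and 27.3 with SMC2. Tpm1 (NM_001164250, chromosome 9) encodes a tropomyosin, which lies along actin filaments, and was the most abundant member. Its RPKM was 184.4 with GFP, 463.5 with SMC1, 260.9 and 207.2 with CAPH2, and 209.2 and 199.3 with SMC2. The Tpm1 levels of the CAPH2 #2, SMC2 #1 and SMC2 #2 libraries lay close together, all slightly above GFP.

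Of the targets usually read as YAP activity, Cyr61 (NM_010516, chromosome 3) and Ctgf (NM_010217, chromosome 10) encode secreted matricellular proteins of the CCN family. The RPKM of Cyr61 was 39.6 with GFP, 124.8 with SMC1, 62.1 and 44.2 with CAPH2, and 41.7 and 42.4 with SMC2. Ctgf had 40.1 with GFP, 138.1 with SMC1, 74.1 and 47.5 with CAPH2, and 52.8 and 47.1 with SMC2. The CCN genes were at nearly the same level in the GFP library and kept the SMC1 and CAPH2 #1 libraries on top. Thbs1 (NM_011580, chromosome 2) encodes thrombospondin 1, a matrix glycoprotein, and had 40.3 with GFP, 152.3 with SMC1, 78.4 and 52.5 with CAPH2, and 61.5 and 52.9 with SMC2. Ankrd1 (NM_013468, chromosome 19) encodes a nuclear and sarcomeric ankyrin repeat protein. It was scarce, with an RPKM of 1.87 with GFP, 9.25 with SMC1, 4.202 and 1.99 with CAPH2, and 3.82 and 2.11 with SMC2, from 66 to 314 counts. Here the first hairpin of each condensin target stood apart from the second and from GFP.

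The order of the libraries was read against counting error, using the exact binomial 95% interval of the ratio of neighbouring libraries, which leaves out any spread between cultures. The SMC1 library was above the CAPH2 #1 library beyond counting error for 9 of 10 genes, the exception being Actg2 (log2 difference 0.28, interval -0.072 to 0.63). The CAPH2 #1 library was above the next library for 8 of 10, the exceptions being Myl9 and Ankrd1, where SMC2 #1 was next. Counted from the highest library as 1, the libraries ranked 3 and 4 differed for 7 of 10, those ranked 4 and 5 for 3 of 10, and those ranked 5 and 6 for 5 of 10. At the low end of the order most neighbours were thus not separated by the depth of these libraries.

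Against GFP the log2 change of RPKM in the SMC1 library had a median of 1.85 over the 10 genes, from 1.33 for Tpm1 to 2.31 for Ankrd1. All 10 were at least 2-fold above GFP, as were 8.05% of the 12181 genes compared. The changes were 2.24 for Tagln, 2.06 for Cnn1, 2.00 for Myl9, 1.92 for Thbs1, 1.78 for Ctgf, 1.66 for Cyr61, 1.51 for Acta2 and 1.36 for Actg2. The targets usually assigned to SRF (1.33 to 2.24) and to YAP (1.66 to 2.31) thus overlapped in their changes. GFP and SMC1 have 1 library each, so these changes have no replicate check and carry no p-value. Scaling to the ERCC spike-in RNAs, which were added by cell number, moved the median of all genes by 0.86 in the SMC1 library, and the members' median was then 2.72.

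**Figure D2:**
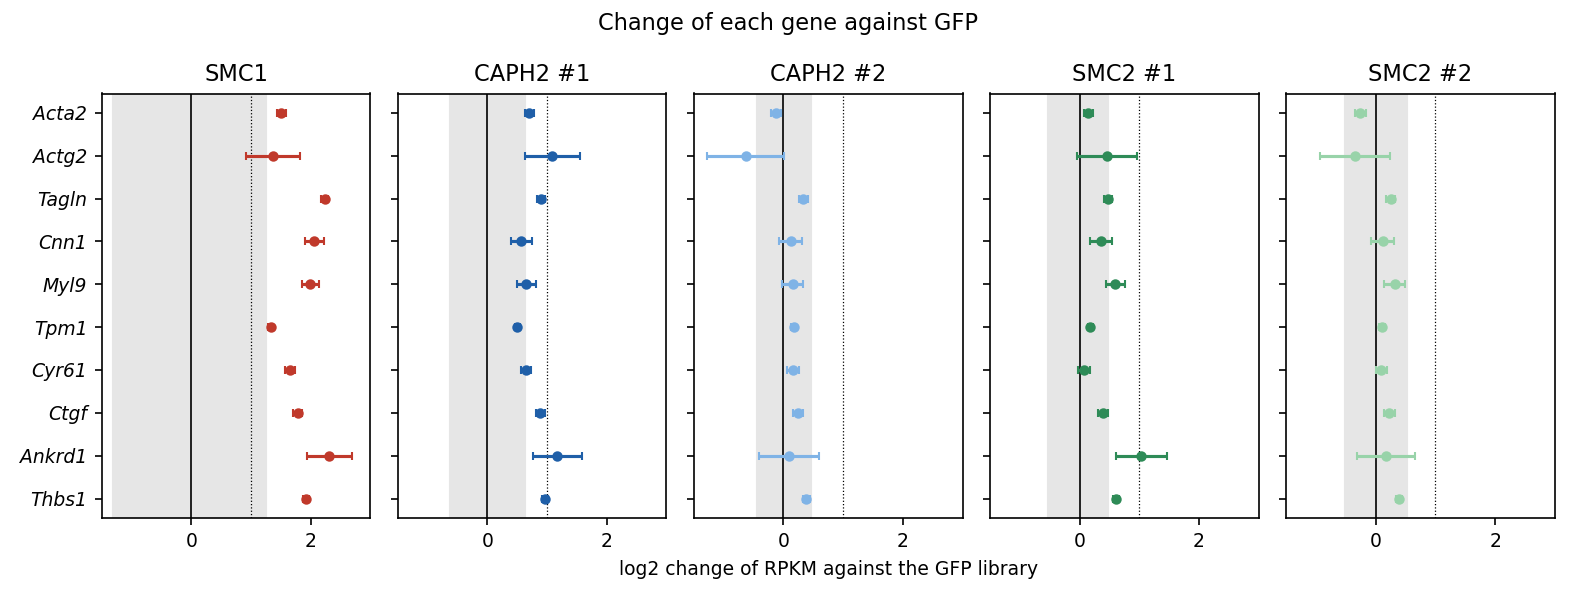
Log2 change of RPKM against the GFP library for each gene, 1 panel per knockdown library, with exact binomial 95% intervals of the counts as bars (counting error only). Grey spans the 5th to 95th percentile of all genes with a mean RPKM of at least 1, and the dotted line marks a 2-fold increase, which all 10 genes exceed with SMC1.

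In the CAPH2 #1 library the median of the 10 genes was 0.79, and all 10 were above GFP beyond counting error. The highest were Ankrd1 at 1.17 and Actg2 at 1.09, which were the 2 genes past 2-fold (1.57% of all genes), and the lowest was Tpm1 at 0.50. As a share of the rise in RPKM seen with SMC1, the rise with CAPH2 #1 was 15.1 to 71.3%, with a median of 29.5%. In the CAPH2 #2 library the median was 0.16, from -0.63 for Actg2 to 0.38 for Thbs1. There 5 genes were above GFP beyond counting error, Acta2 was below it at -0.13, and 0 were past 2-fold (0.534% of all genes). How many of all genes lay beyond counting error was not counted, so the counts here and for SMC2 below describe the members alone.

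In the SMC2 #1 library the median was 0.42, from 0.075 for Cyr61 to 1.03 for Ankrd1. Ankrd1 was the 1 gene past 2-fold (0.616% of all genes), and 8 of 10 were above GFP beyond counting error, without Cyr61 and Actg2. In the SMC2 #2 library the median was 0.15, from -0.34 for Actg2 (0.23 when scaled to the ERCC RNAs) to 0.39 for Thbs1. There 5 genes were above GFP beyond counting error, Acta2 was below it at -0.26 (0.31 when scaled to the ERCC RNAs), and 0 were past 2-fold (0.747% of all genes). The changes of all 5 knockdown libraries share the single GFP library.

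The hairpins of a target did not give the same levels. All 10 genes were higher with CAPH2 #1 than with CAPH2 #2, by a median of 0.57 on the log2 scale, from 0.33 for Tpm1 to 1.71 for Actg2. A difference at least as large as that median in this direction was seen in 2.21% of all genes, and the median absolute difference of all genes was 0.11. With SMC2, 9 of 10 genes were higher with the first hairpin, by a median of 0.23, from -0.022 for Cyr61 to 0.86 for Ankrd1, and 5.74% of all genes reached that median. The mean log2 change of Tagln was 0.62 ± 0.40 (SD, n = 2 hairpins) with CAPH2 and 0.36 ± 0.16 with SMC2. That of Thbs1 was 0.67 ± 0.41 with CAPH2 and 0.50 ± 0.15 with SMC2. With CAPH2 the spread between hairpins exceeded the mean change for Acta2 (0.29 ± 0.59), Actg2 (0.23 ± 1.21) and Ankrd1 (0.63 ± 0.76). It did so for the same genes with SMC2, at -0.055 ± 0.29, 0.057 ± 0.56 and 0.60 ± 0.61.

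**Figure D3:**
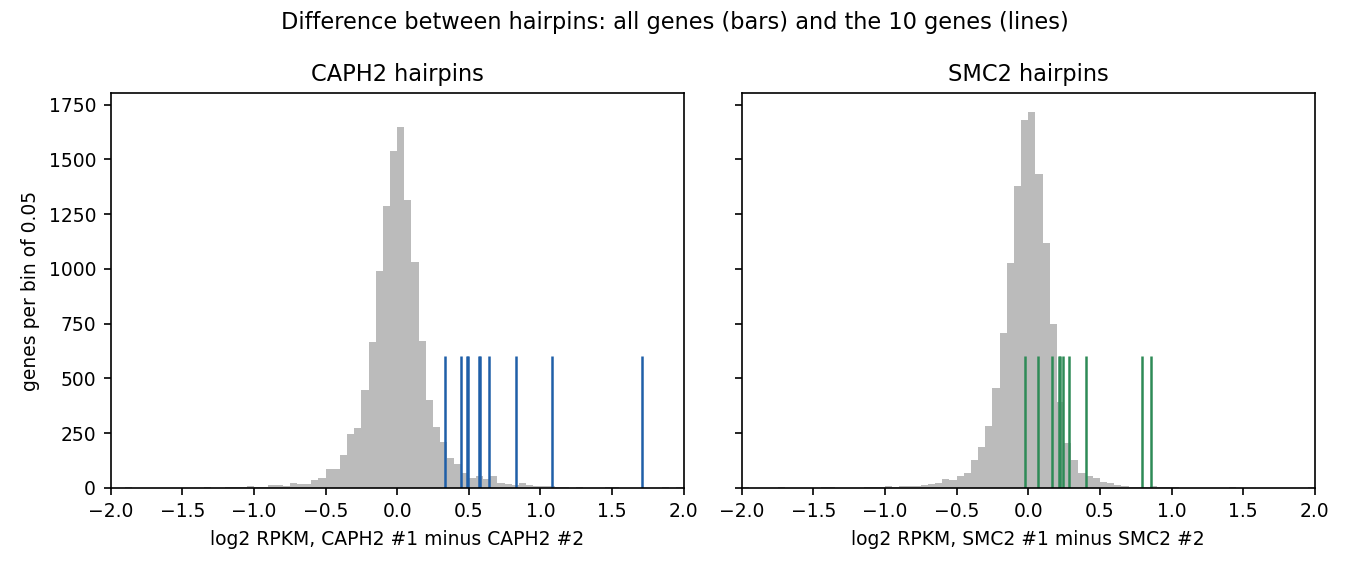
Difference in log2 RPKM between the first and second hairpin of CAPH2 (left) and SMC2 (right). Grey bars count all genes with a mean RPKM of at least 1 in bins of 0.05 and each colored line is 1 of the 10 genes, which lie to the right of 0 for CAPH2 and, except Cyr61, for SMC2.

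Whether cohesin and condensin knockdown differed was asked with a single edgeR quasi-likelihood fit over all 6 libraries, in which the lone SMC1 and GFP libraries are assumed to vary like the hairpin pairs. Of the 10 genes, 9 were higher with SMC1 than with the mean of the condensin hairpins at a Benjamini-Hochberg adjusted p under 0.05, beside 23.3% of the 14159 genes tested. The differences were 1.74 for Cnn1 (SE 0.14, adjusted p = 3.02e-05, edgeR), 1.71 for Tagln (SE 0.15, adjusted p = 5.13e-05) and 1.53 for Myl9 (SE 0.15, adjusted p = 8.40e-05) on the log2 scale. They were 1.38 for Cyr61, 1.34 for Acta2, 1.31 for Ctgf, 1.30 for Thbs1 and 1.07 for Tpm1, with SEs of 0.10 to 0.23. Ankrd1 differed by 1.58 (SE 0.33, adjusted p = 0.0043, edgeR). Each of the 9 was higher in the SMC1 library than in all 4 condensin libraries. For Actg2 the difference was 1.03 (SE 0.45) and did not pass (adjusted p = 0.0933, edgeR). DESeq2 called 8 of the 10 higher, without Actg2 and Ankrd1, beside 2168 of the 14159 genes.

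Against GFP, the mean of the condensin hairpins differed by 0.17 (Acta2) to 0.73 (Ankrd1) on the log2 scale. With edgeR 0 of the 10 genes passed, beside 6.60% of all genes called higher. With DESeq2 0 passed as well, and Actg2 and Ankrd1 had no adjusted p-value. At an unadjusted p under 0.05 edgeR had 5 of the 10, beside 30.8% of all genes. The lowest adjusted p-values were 0.0562 for Thbs1 (0.62, SE 0.18) and 0.0890 for Tagln (0.52, SE 0.18), both from edgeR. This count changed when single libraries were left out. Without a CAPH2 library the gap between the CAPH2 hairpins left the error, and the spread came from the SMC2 pair alone. For Ctgf the log2 difference was 0.47 with all hairpins and 0.29 without CAPH2 #1. Without CAPH2 #2, 9 of 10 genes were called higher (14.0% of all genes), all except Actg2. Without CAPH2 #1, Tagln, Ctgf and Thbs1 were called higher (9.46% of all genes). Without SMC2 #2 edgeR called 0 genes in all, and 3487 had an unadjusted p under 0.05. The comparison shares the condensin libraries with the one above.

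Between the targets SMC2 and CAPH2, 0 of the 10 genes differed, with log2 differences of -0.38 (Acta2) to 0.049 (Myl9) and adjusted p-values of 0.9997 from edgeR. Smc2 itself was the 1 gene called of all tested (0.00706%), 430 genes (3.04%) had an unadjusted p under 0.05, 1 of the 10 among them, and DESeq2 called 3 genes and 0 of the 10. Without CAPH2 #2, leaving CAPH2 #1 alone, 7 of the 10 were called lower with SMC2 (1.49% of all genes). These were Acta2, Actg2, Tagln, Tpm1, Cyr61, Ctgf and Thbs1. In that fit the gap between the CAPH2 hairpins was not part of the error, and the spread came from the SMC2 pair alone.

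SRF and its expressed cofactors had smaller changes with SMC1 than any of the 10 genes. Of this group 1 of 6 expressed genes was 2-fold above GFP with SMC1, and 4 of 6 tested were higher with SMC1 than with the condensin hairpins. Elk4 and Elk3, ternary complex cofactors of SRF, had log2 changes against GFP of 1.01 and 0.68, the third of them, Elk1, -0.35 (0.51 when scaled to the ERCC RNAs), Srf itself 0.60, and the MRTF genes Mrtfa and Mrtfb 0.56 and 0.38. Srf (0.53, adjusted p = 0.000513, edgeR) and Mrtfa (0.51, adjusted p = 0.00207) passed against the condensin hairpins, whereas Mrtfb did not (0.17, adjusted p = 0.197). With the condensin hairpins the log2 change of Srf against GFP was 0.014 to 0.10. Myocd, the smooth muscle cofactor of SRF, had 4 to 8 counts in every library. Over all genes tested, 21.0% were lower with SMC1 than with the condensin hairpins.

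Other cytoskeletal SRF targets were higher as well, by a smaller median. Of 20 expressed genes 10 were 2-fold above GFP with SMC1 and 0 were 2-fold below, with a median of 1.02, and 16 of 21 tested were higher with SMC1 than with the condensin hairpins and 0 lower. The largest changes against GFP were 2.19 for Fhl2, a LIM domain cofactor, 2.16 for Cald1 (caldesmon), 2.15 for Actc1 and 1.86 for Acta1, the cardiac and skeletal actins. The limit given above for the actin paralogs applies to Actc1, Acta1 and Actb as well. The abundant nonmuscle actin Actb was at 0.079 and did not pass (RPKM 756.7 with GFP and 799.4 with SMC1). The expressed immediate early SRF targets showed no such change. Of 4 expressed, 0 were 2-fold above or below GFP with SMC1, with a median of -0.22, and 0 of 6 tested passed in edgeR. Their changes were -0.25 for Fos, -0.26 for Ier2, -0.19 for Junb and 0.22 for Egr1, and the first 3 were above 0 (0.61 to 0.68) when scaled to the ERCC RNAs. Below the expression minimum, Egr2 had 23 counts with GFP and 72 with SMC1, and Egr3 had 3 and 23.

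Of the Hippo pathway, 6 of 18 expressed genes were 2-fold above GFP with SMC1 and 1 was 2-fold below, with a median of 0.50, and 12 were higher and 2 lower than with the condensin hairpins. The coactivators themselves were at 0.25 (Yap1) and 0.27 (Wwtr1), of which Wwtr1 passed against the condensin hairpins (0.32, adjusted p = 0.019, edgeR) and Yap1 did not (0.12, adjusted p = 0.22). The kinase gene Lats2 was at 2.56, and Amot and Amotl2, which encode angiomotins that bind YAP, were at 1.92 and 1.48. Tead4 was the gene below, at -1.57 (-1.23 against the condensin hairpins, adjusted p = 0.000295, edgeR). Of 18 other expressed YAP targets, 9 were 2-fold above GFP and 0 below, with a median of 0.96, and 13 of 20 tested were higher than with the condensin hairpins and 0 lower. They were led by Lats2, Ccdc80 (2.32), Ptpn14 (1.88) and Nt5e (1.80). Lats2 and Amotl2 are in both lists. For the condensin hairpins against GFP, edgeR called 2 cytoskeletal SRF targets higher and 1 lower, 3 Hippo genes higher and 1 lower, and 6 YAP targets higher and 1 lower, where 5.14% of all genes were called lower.

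**Figure D4:**
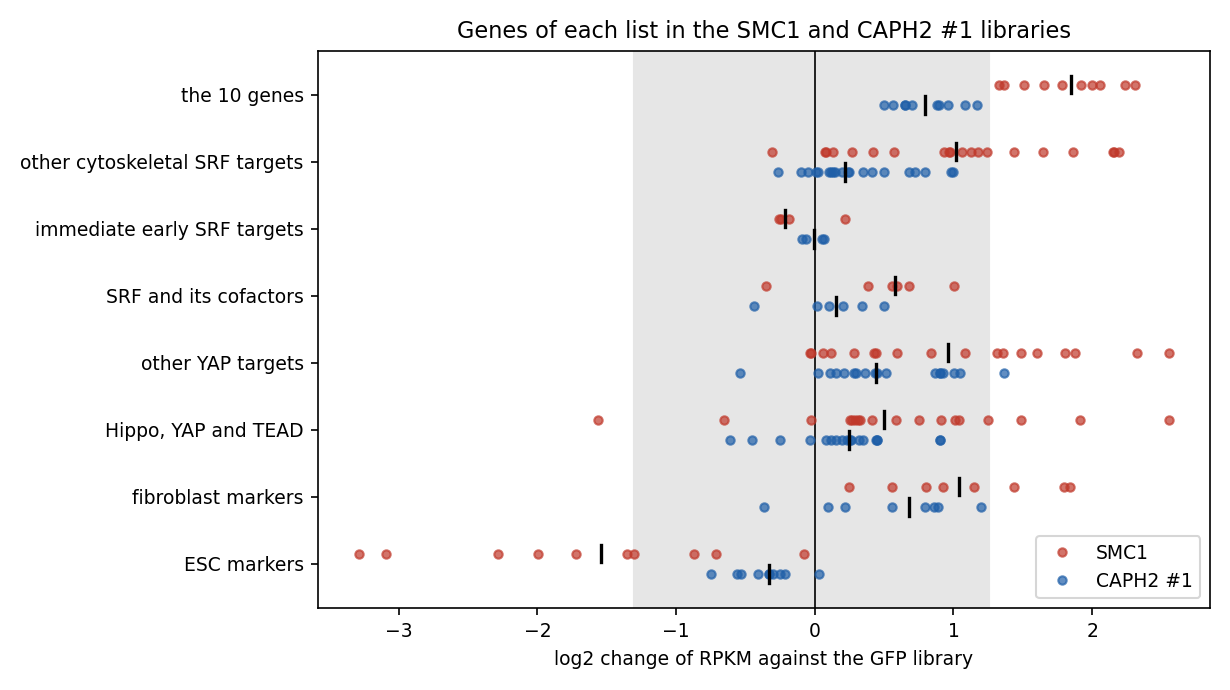
Log2 change of RPKM against GFP for the expressed genes of each list (1 point per gene, black bars the medians), in the SMC1 and CAPH2 #1 libraries. Grey spans the 5th to 95th percentile of all genes with SMC1, and the 10 genes, the other cytoskeletal SRF targets and the other YAP targets have medians of 1.85, 1.02 and 0.96, whereas the immediate early SRF targets lie around 0.

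Markers of other cell types and of ESCs also differed in these libraries. The summed RPKM of the fibroblast markers was 52.3 with GFP, 113.1 with SMC1, 79.4 with CAPH2 #1 and 57.1 to 63.1 in the other 3 libraries. Of 8 expressed fibroblast markers, 4 were 2-fold above GFP with SMC1 (Prrx1 1.84, Twist1 1.80, Col1a2 1.43, Col3a1 1.15) and 7 of 8 tested were higher than with the condensin hairpins. Of the defining fibroblast genes, Dcn had 1 count with GFP, 19 with SMC1 and 5 to 7 in the other libraries, Lum had 1 with GFP, 5 with SMC1 and 0 to 1 in the others, and Fap had 0 to 2 in all. Of the smooth muscle markers Lmod1 was at 1.29, Smtn at 0.445, Synm at 0.286 and the intermediate filament gene Des at -1.25. Myh11 had an RPKM of 0.14 to 0.35, from 23 counts with GFP and 45 with SMC1. The summed level of the trophectoderm markers was 117.5 with GFP and 283.5 with SMC1 and 87.0 to 131.1 in the other 4. With SMC1 3 of 5 expressed trophectoderm markers were 2-fold above GFP and 0 below. Krt18 was at 1.36, Krt8 at 1.19, Krt7 at 0.92 and Hand1 at -0.74 (0.13 when scaled to the ERCC RNAs). Cdx2, with 15 counts with GFP and 107 with SMC1, was at 3.00. It met the expression minimum only through the SMC1 library, with an RPKM of 2.59 there and 0.325 to 0.973 in the others. With the condensin hairpins Cdx2 was at 1.12 to 1.58, whereas Krt18 was at -0.50 to 0.19. The ESC markers summed to 3995 with GFP, 2120 with SMC1 and 3276 to 3494 with the condensin hairpins, and 7 of 10 were 2-fold below GFP with SMC1 (7.63% of all genes), led by Esrrb (-3.29), Klf4 (-3.09), Fgf4 (-2.29) and Zfp42 (-1.99). The part of cell composition in the levels of the 10 genes was not tested.

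The genes outside the 10 whose profile over the 6 libraries was nearest to the mean profile of the members, by the root mean square difference of centred log2 RPKM over 12117 genes, were Tgfb3, Cspg4, Trim16, Anxa3 and Timp2. Their differences were 0.078 to 0.093, against 0.075 to 0.34 for the members themselves. The former are the lowest among the 12117 genes, and the members make up the mean itself. Cspg4 encodes a membrane proteoglycan of pericytes, and its RPKM was 1.06 with GFP, 4.28 with SMC1, 2.06 and 1.32 with CAPH2, and 1.63 and 1.34 with SMC2. Timp2, an inhibitor of matrix metalloproteinases, had 9.92 with GFP, 34.3 with SMC1, 19.1 and 12.5 with CAPH2, and 14.5 and 11.9 with SMC2. Both were picked for their nearness to the members' profile, so their order, with SMC1 highest and CAPH2 #1 next, follows from that choice.

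Tpm1 has 10 RefSeq transcripts, which differ in their first exon and in their 3′ end. The 6 that begin at the upstream first exon had log2 changes of 1.24 to 1.33 with SMC1, and the 4 that begin at an internal first exon had 1.00 to 1.24. Most exons are shared, so their counts overlap and the transcripts are not separate measurements. Both groups also mix 3′ ends, so these ranges do not compare first exons alone.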

How the data were processed

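Alignment by the authors used Bowtie and mm9 (NCBI build 37) and discarded reads with many alignments, and the authors deposited the count of exonic reads per RefSeq transcript (26073 rows, plus 92 ERCC rows) without marking strand. The authors also deposited RPKM, scaled to exon length and to 18823247 to 23324537 reads per library, not to the ERCC RNAs (1.42 µl of diluted mix per 652000 cells, 0.948 to 1.77% of counts). Among the members, counts were fewest for Actg2 and Ankrd1.

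Symbols were matched by accession for 25353 rows, and 1 row per gene was kept. Log2 changes against GFP used the deposited RPKM with no pseudocount. Counts (mean of at least 10) were tested with edgeR 4.0.16 in R 4.3.3 (TMM, quasi-likelihood, 4 groups, 2 residual degrees of freedom, adjusted p under 0.05). DESeq2 1.42.0 served as another tool. The edgeR script was first tested on simulated data. Intervals came from scipy 1.17.1. The alternatives were other scalings, filters, a pseudocount of 1 RPKM, all rows, and leaving out hairpins. File starts were read as counted from 0 and printed from 1. RefSeq promoters were searched in GRCm38.p6, and no coordinates were converted.

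The members and the lists were chosen with earlier results of these data known. The genes named are all members, the genes Srf, Mrtfa, Mrtfb, Yap1, Wwtr1 and Tead4, and the 5 nearest profiles. From each list described above by gene, the 4 with the largest absolute change with SMC1 (mean of at least 50 counts) are also named. Actb, Elk1, Egr2, Egr3, Myocd, Myh11, Lum, Fap, Dcn, Cdx2 and Actn2 were named after their values were seen. Primitive endoderm markers (3 of 8 tested higher with SMC1 than with the condensin hairpins, 1 lower) and cardiac markers (3 of 5 higher) were also measured. The 3 cardiac markers called lie below the expression minimum. The 1 above it, Actn2, was at -0.11 against GFP with SMC1 (0.76 when scaled to the ERCC RNAs) and did not pass. The result for 1 further list is not reported here.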

Additional observations from a re-analysis of the deposited data

How the results depend on the processing

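Scaled to the ERCC RNAs, the median change of the members against GFP moved from 1.85 to 2.72 with SMC1 and from 0.28 to 0.88 with SMC2, the members past 2-fold from 2 to 10 with CAPH2 #1 and from 1 to 6 with SMC2 #1, and with SMC2 #2 Acta2 turned from -0.26 to 0.31 and Actg2 from -0.34 to 0.23. With a pseudocount of 1 RPKM the SMC1 median was 1.80, and 0 members were past 2-fold with CAPH2 #1 and with SMC2 #1. Scaling to the ERCC RNAs moved the median of all genes by 0.63 with CAPH2 #1 and by 0.64 with SMC2 #1. The share of all genes past 2-fold under that scaling was not counted, so the member counts under it have no background share. The cause of these changes was not tested beyond the shift of all genes that the ERCC scaling makes by construction. For SMC1 against the condensin hairpins, 8 to 10 of the 10 members were called higher with other scalings, tools, filters and rows. Called higher in all were 2168 of 14159 genes with DESeq2, 3447 of 17733 without the count filter and 4165 of 18153 over all rows. Without single hairpins the members' log2 differences ran from 0.73 (Actg2, without CAPH2 #2) to 1.90 (Ankrd1, without CAPH2 #1). For the condensin hairpins against GFP, 1663 genes were called, 1103 with DESeq2, and 0 to 3944 without single hairpins. In this comparison DESeq2 gave an adjusted p-value to 9767 genes, without Actg2 and Ankrd1. The members called higher were 0, with 4 without the count filter (beside 1310 of 17733 genes) and 1 over all rows (beside 1246 of 18153 rows). Those called without single hairpins are given above. For SMC2 against CAPH2, 1 gene was called, 3 with DESeq2, 4 without the filter, 3 over all rows, and 1 to 305 without single hairpins. The members called lower were 0 to 7 without single hairpins. With the replicate block 6 genes were called and 0 members. The deviations of same-numbered libraries correlated at 0.054 over all genes tested. Of the members, 10 were higher in the first CAPH2 library and 9 in the first SMC2 library. Whether same-numbered libraries share a condition was not tested. Without 1 hairpin of a pair, the spread came from the other pair alone. Actg2 and Ankrd1 rest on the fewest counts of the members. Their CAPH2 hairpins were also the furthest apart, by 1.71 and 1.08 on the log2 scale. Which of these limits their calls was not tested. With 1 library each of SMC1 and GFP, the spread between cultures of these targets is unknown.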
